A study of Mus musculus with 12 samples.

Results

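Integrins are the receptors by which epidermal cells hold on to the basement membrane and to other extracellular matrix, and 10 integrin chain genes known from the epidermis are described here across 4 sorted cell populations of mouse back skin. The genes were chosen by name, with earlier results of these data known: the alpha chains Itga2, Itga3, Itga5, Itga6, Itga9 and Itgav and the beta chains Itgb1, Itgb4, Itgb6 and Itgb8. All 10 had probe sets of their own on the arrays, among 17853 genes measured. The cells came from the back-skin epidermis of female C57BL6/CBA mice that all carried a Gata6-mtomato reporter, whose red fluorescence stood for activity of the transcription factor Gata6. The hair cycle was in telogen, its resting phase, and the donors were matched for age, which is not given. Cells were separated by flow cytometry into Gata6+Itga6- cells, Gata6+Itga6+ cells, Itga6+ cells with surface CD34 and no reporter signal (CD34+ cells) and the Itga6+ cells that lacked both (remaining basal cells). Each population had 3 samples, labelled as biological replicates, each hybridised to an Affymetrix mouse exon array. How the reporter was built is not given in the sources used here.

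An integrin is a pair of an alpha and a beta chain, and the pair decides which matrix protein is bound. In the epidermis the pair of Itga6 and Itgb4 binds laminin at the hemidesmosome, the plaque that ties keratin filaments of basal cells to the basement membrane. Itgb1 pairs with Itga3 to bind laminin, with Itga2 to bind collagen, with Itga5 to bind fibronectin and with Itga9 to bind tenascin C among others. Itgav pairs with Itgb6 or Itgb8, and both pairs bind and activate latent TGF-beta. Keratinocytes are known to lose integrins from their surface as they leave the basal layer. Itga6 was itself used to sort the cells, so its transcript checks the gate and is no finding. In sorted pools, fewer cells of a type and less RNA per cell cannot be told apart.

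Levels are given as log2 of the deposited intensity plus 1, taken as the median over the probe sets of a gene. Receptor genes of the olfactory and vomeronasal organs, which skin is taken not to use, had a 95th percentile of 2.46, and this served as the level of silent genes. A fold against a mean under that level is given as a lower bound, written as at least so many fold. The bound is for the median over probe sets and not for each of them, and adding 1 makes folds of dim genes smaller. Levels are compared between populations for the same gene and never between genes. Array medians were 3.97 to 4.57 on the intensity scale, and precision is limited by there being 3 arrays in each population. Array upper quartiles, which as log2 stood for array brightness in an alternative fit, were 12.1 to 17.6. Gata6 transcript averaged 5.84 in the Gata6+Itga6- population, 4.39 in the Gata6+Itga6+ population, 2.84 in CD34+ and 2.73 in remaining basal cells. Cd34 averaged 7.95 in CD34+ cells and lay under the level of silent genes in the other 3 populations. The basal keratin Krt5 averaged 6.67 in Gata6+Itga6- cells and 9.17 to 9.54 in the 3 Itga6+ populations. Krt14, also basal, differed less, at 8.60 against 9.10 to 9.36. The upper follicle keratin Krt79 averaged 9.52 in the Gata6+Itga6- and 7.91 in the Gata6+Itga6+ population. The suprabasal keratin Krt10 averaged 6.90 in CD34+ cells and 9.30 to 9.61 in the other populations, remaining basal cells among them. Suprabasal Krt1 averaged 4.77 in Gata6+Itga6-, 3.03 in CD34+ and 7.15 in remaining basal cells. On the Gata6+Itga6+ arrays Krt1 stood at 7.69, 7.19 and 6.12, so it was not highest in Gata6+Itga6- cells. Among markers of other cells, all 5 of endothelial cells and all 4 of platelets had means under the level of silent genes in every population.

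**Figure D1:**
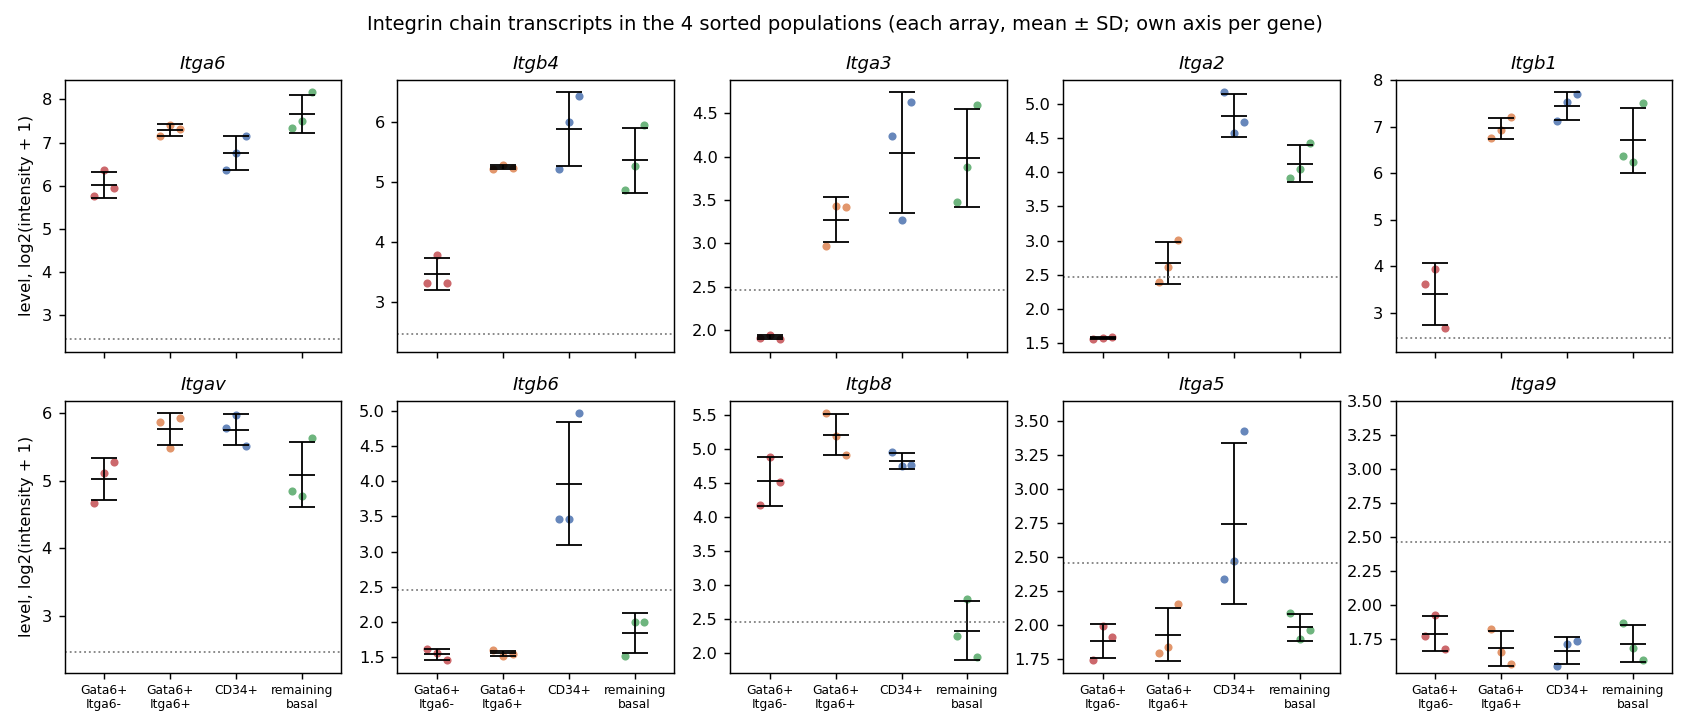
Level of each integrin chain on each array (points; vertical axes, log2 of intensity plus 1, a separate axis for each gene) in the 4 populations, with bars for the mean and SD of 3 arrays and a dotted line at the level of silent genes, 2.46. Itgb1, Itgb4, Itga3 and Itga2 are lowest in Gata6+Itga6- cells, Itgb8 is lowest in remaining basal cells, and the median of Itgb6 stands over the dotted line in CD34+ cells alone.

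In Gata6+Itga6- cells, set against Gata6+Itga6+ cells, transcripts of Itgb1, Itgb4 and Itga2 were lower. A gene was called at an adjusted p under 0.05 over all genes (limma with Benjamini-Hochberg adjustment). Of the 9 chains other than the sort gene Itga6, these 3 were called lower, none was called higher, and 6 were not called, where 2.01% of all genes were called lower and 1.17% higher. The median log2 change of the 9 chains was -0.75, against -0.03 over all genes. Against CD34+ cells, 5 of the 9 chains were lower in Gata6+Itga6- cells (Itgb1, Itga2, Itgb4, Itgb6 and Itga3), and none was higher, where 4.74% of all genes were called lower and 3.22% higher. Against remaining basal cells, 4 were lower (Itgb1, Itga2, Itga3 and Itgb4) and Itgb8 was higher, where 2.15% and 2.96% of all genes were called lower and higher. These 3 comparisons share the arrays of Gata6+Itga6- cells. In the first of them, Itgb1 alone was called without Gata6+Itga6+ replicate 3, Gata6+Itga6- replicate 1 or Gata6+Itga6- replicate 3, and Itgb1 and Itga2 without Gata6+Itga6+ replicate 2.

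Among the 3 basal populations the chains called were Itga2, Itgb6 and Itgb8. Itga2 and Itgb6 were lower in Gata6+Itga6+ than in the CD34+ population, the only 2 of 10 called, where 2.18% of all genes were called lower and 2.4% higher. Against remaining basal cells, Gata6+Itga6+ cells had higher Itgb8 and lower Itga2, where 1.07% of all genes were called higher and 0.286% lower. CD34+ cells had higher Itgb6 and Itgb8 than remaining basal cells, where 3.32% of all genes were called higher and 1.67% lower. The 3 comparisons share arrays pair by pair. Arrays of the 2 populations did not overlap for 6 of the 9 chains in Gata6+Itga6- against Gata6+Itga6+ cells (19.4% of all genes), 7 against CD34+ cells (22.7%) and 5 against remaining basal cells (19.8%). Of all 10 chains, they did not overlap for 3 in Gata6+Itga6+ against CD34+ cells (19.5%), 3 in Gata6+Itga6+ against remaining basal cells (15.7%) and 5 in CD34+ against remaining basal cells (18.8%).

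**Figure D2:**
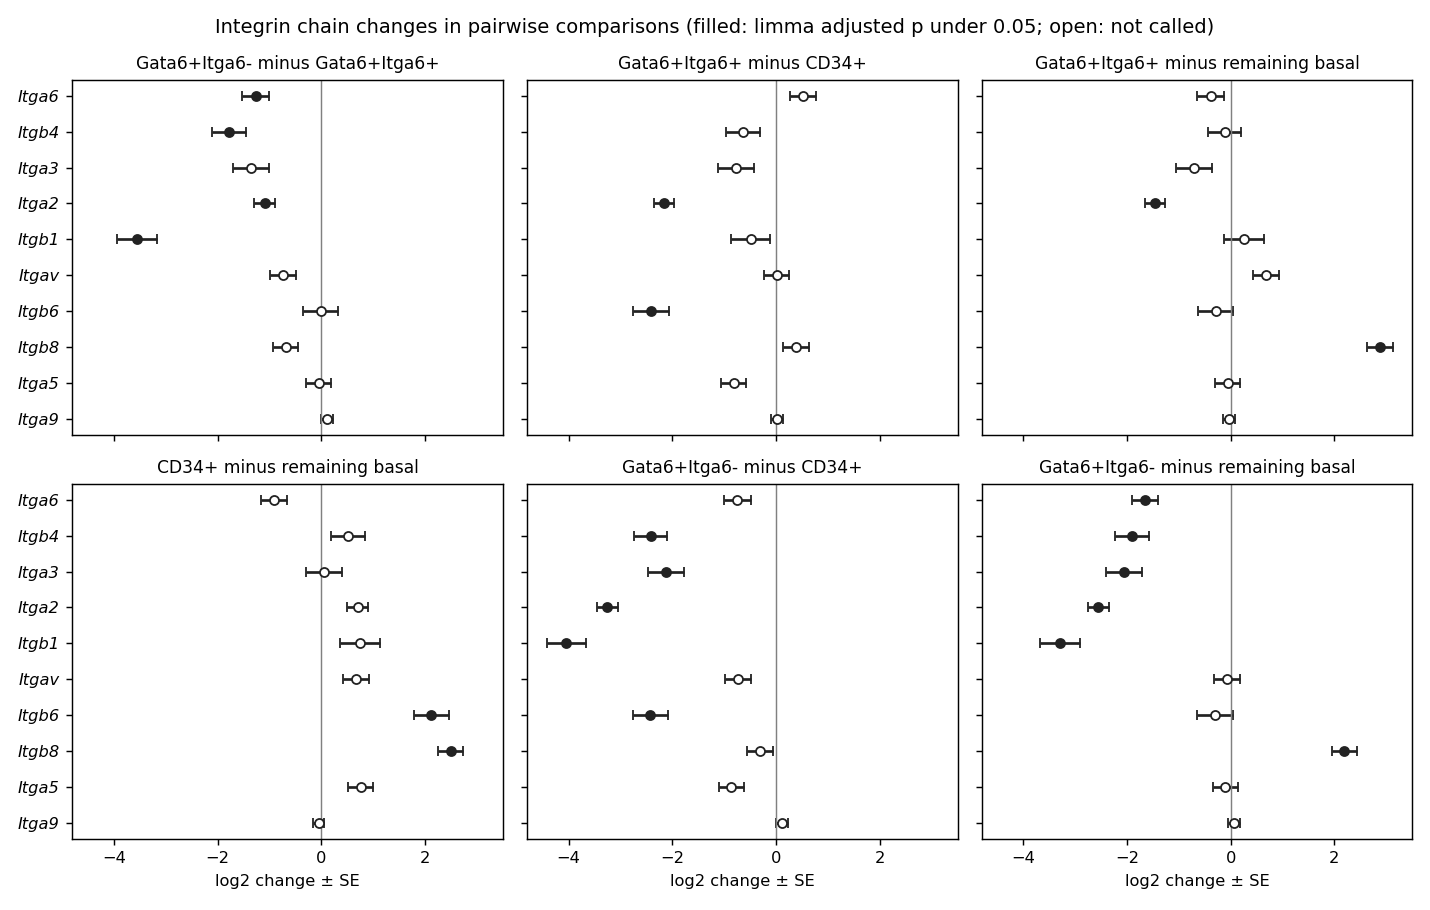
Log2 change and SE (horizontal axes) of each integrin chain in the 6 comparisons, named above each panel as one population minus another; filled points passed an adjusted p of 0.05 in limma and open points did not. In the panels with Gata6+Itga6- cells, filled points of Itgb4, Itga2 and Itgb1 lie to the left of 0, and Itgb8 lies to the right of 0 against remaining basal cells.

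Itga6, the alpha chain of the hemidesmosome and the sort gene, stood at 5.76, 6.36 and 5.94 on the 3 arrays of Gata6+Itga6- cells, against 7.14, 7.41 and 7.31 in Gata6+Itga6+ cells. It stood at 6.37, 6.75 and 7.16 in CD34+ cells and at 7.33, 7.50 and 8.17 in remaining basal cells. The Gata6+Itga6- arrays thus lay below all others, but far over the level of silent genes, so the cells sorted as lacking the protein still gave Itga6 signal. Against Gata6+Itga6+ cells the log2 change was -1.27 ± 0.26 (SE, adjusted p = 0.0268), a 2.41-fold difference (1.45-fold with the brightest probe set alone), and against remaining basal cells it was -1.65 ± 0.26 (adjusted p = 0.00367). Against CD34+ cells it did not pass the test (-0.74 ± 0.26, adjusted p = 0.131), although the arrays did not overlap. Between the gated-positive populations, Itga6 averaged 6.76 in CD34+ and 7.67 in remaining basal cells, with no overlap of arrays (-0.91 ± 0.26, adjusted p = 0.0808). This change passed with quantile normalization (adjusted p = 0.00112) and the mean of probe sets (0.018). It also passed with array brightness as a covariate (0.000223) and with a replicate block (0.0395), but in none of the other alternatives. Among those it failed with the brightest probe set (adjusted p = 0.366) and with only the 2 populations fitted (0.238). All 25 Itga6 probe sets were lower in CD34+ than in the remaining basal population, 18 of them with no overlap, where 6.71% of all probe sets lay lower in this way.

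Itgb4, the partner of Itga6 and the chain that anchors to the keratin cytoskeleton through its long tail, stood at 3.32, 3.77 and 3.30 in Gata6+Itga6- cells. It stood at 5.21, 5.28 and 5.24 in Gata6+Itga6+ cells, at 5.21, 6.00 and 6.44 in CD34+ cells and at 4.87, 5.27 and 5.95 in remaining basal cells. Every array of Gata6+Itga6- cells lay below every other array, and the 3 basal populations overlapped. Itgb4 was 3.44-fold lower in Gata6+Itga6- than in the Gata6+Itga6+ population (log2 change -1.78 ± 0.32, adjusted p = 0.0163). It was 5.34-fold lower than in the CD34+ population (-2.42 ± 0.32, adjusted p = 0.000882) and 3.73-fold lower than in the remaining basal population (-1.90 ± 0.32, adjusted p = 0.00647). Of its 41 probe sets, 38 were lower in Gata6+Itga6- than in the Gata6+Itga6+ population, 24 of them with no overlap of arrays, where 9.65% of all probe sets lay lower in this way. Among the basal populations its largest log2 change was -0.64 ± 0.32, in Gata6+Itga6+ against CD34+ cells, and did not pass the test (adjusted p = 0.428). This change passed with quantile normalization (-0.81, adjusted p = 0.0277) and with array brightness as a covariate (-0.79, adjusted p = 0.0133).

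Of 10 other hemidesmosome and tetraspanin genes measured, Col17a1 was the only 1 called between Gata6+Itga6- and Gata6+Itga6+ cells, and the median log2 change of the list was -0.78, against -0.03 over all genes. Col17a1 encodes collagen XVII, the transmembrane collagen of the hemidesmosome that binds Itgb4. Its level was 4.20, 4.60 and 3.80 in Gata6+Itga6- cells, against 6.21, 5.97 and 6.09 in Gata6+Itga6+ cells, a 3.70-fold difference (log2 change -1.89 ± 0.28, adjusted p = 0.00652). It averaged 6.99 ± 0.50 in CD34+ and 6.50 ± 0.38 in remaining basal cells (SD, n = 3 each). Dst, whose epidermal form BP230 links the plaque to keratin, was called only against CD34+ cells, where Gata6+Itga6- cells averaged 4.21 ± 0.11 and CD34+ cells 5.56 ± 0.15 (2.55-fold lower, adjusted p = 0.00689). The tetraspanin Cd82 was 6.14-fold higher in Gata6+Itga6- than in the remaining basal population (5.57 ± 0.57 against 2.95 ± 0.43, adjusted p = 0.00906). Slc3a2, the amino acid transporter heavy chain that binds the tails of beta integrins, was 5.04-fold higher in CD34+ than in the remaining basal population (5.79 ± 0.47 against 3.46 ± 0.59, adjusted p = 0.00619), and Gata6+Itga6- cells lay below CD34+ cells too (3.46 ± 0.32, adjusted p = 0.00416). Between Gata6+Itga6+ cells and either other basal population, limma called 0 of the 10, with 3 of them at an unadjusted p under 0.05 in each.

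Itgb1, the beta chain shared by the laminin, collagen, fibronectin and tenascin receptors, had the widest span of means of the 10 chains. Its level was 3.62, 3.94 and 2.66 in Gata6+Itga6- cells, against 6.76, 6.93 and 7.20 in Gata6+Itga6+ cells. It was 7.12, 7.53 and 7.71 in CD34+ cells and 6.37, 6.24 and 7.51 in remaining basal cells. The 9 arrays of Itga6+ cells overlapped across populations and all lay above the 3 arrays of Gata6+Itga6- cells, of which replicate 3 was the lowest. Itgb1 was 11.8-fold lower in Gata6+Itga6- than in the Gata6+Itga6+ population (log2 change -3.56 ± 0.38, adjusted p = 0.000891), 16.5-fold lower than in the CD34+ population (-4.04 ± 0.38, adjusted p = 7.79e-05) and 9.83-fold lower than in the remaining basal population (-3.30 ± 0.38, adjusted p = 0.00054). All 18 Itgb1 probe sets were lower in Gata6+Itga6- than in the Gata6+Itga6+ population with no overlap of arrays. Over all probe sets 9.65% lay lower in this way. With the mean of probe sets in place of the median the folds were 6.33, 9.56 and 5.44, and with the brightest probe set alone 4.09, 5.46 and 4.14. The spread of the 4 means, 4.04, was wider than that of 99.5% of all genes. Among the basal populations Itgb1 did not pass the test, with log2 changes of -0.49 to 0.75.

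Markers of some cell types and states differed in Gata6+Itga6- cells, but no T-cell, Langerhans cell or macrophage marker was called in any comparison. The basal keratinocyte markers Krt5, Krt14 and Col17a1 were all 3 called lower in Gata6+Itga6- than in each other population. Their summed intensity was 475.0 to 555.4 in Gata6+Itga6- cells, against 1251 to 1308 in Gata6+Itga6+, 1215 to 1487 in CD34+ and 1432 to 1607 in remaining basal cells. Of 4 measured T-cell markers, Cd3e and Cd3g had means over the level of silent genes in Gata6+Itga6- cells and none did elsewhere, while Cd3d and Cd2 lay under it throughout. Cd3e was 3.80 on replicate 3 and Cd3g 3.27 on replicate 1, and the other arrays of the population lay between 1.96 and 2.22 for these genes. The summed intensity of the 4 markers was 11.0 to 23.6 in Gata6+Itga6- cells, against 9.00 to 11.1 in Gata6+Itga6+, 8.40 to 13.6 in CD34+ and 9.68 to 10.3 in remaining basal cells. Of 6 Langerhans cell and macrophage markers, H2-Aa alone lay over the level, in Gata6+Itga6- cells, with sums of 19.4 to 25.8 there, 13.6 to 18.1 in Gata6+Itga6+, 12.6 to 23.0 in CD34+ and 14.2 to 15.5 in remaining basal cells. The part of these markers in the results for Gata6+Itga6- cells was not tested.

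Itga2, the collagen-binding partner of Itgb1, graded across the populations. Its level was 1.56, 1.57 and 1.59 in Gata6+Itga6- cells, under the level of silent genes, and 2.39, 2.62 and 3.00 in Gata6+Itga6+ cells, close to it. It was 5.17, 4.57 and 4.74 in CD34+ cells and 3.91, 4.04 and 4.42 in remaining basal cells. By this median no array of any population overlapped with another population, although arrays overlapped for some single probe sets. Itga2 was 4.47-fold lower in Gata6+Itga6+ than in the CD34+ population (log2 change -2.16 ± 0.20, adjusted p = 0.000129) and 2.74-fold lower than in the remaining basal population (-1.46 ± 0.20, adjusted p = 0.0055). The change against remaining basal cells was not called with the brightest probe set (-1.20, adjusted p = 0.279). Nor was it called when only these 2 populations were fitted (adjusted p = 0.0601). Gata6+Itga6- cells were lower still than Gata6+Itga6+ cells (-1.09 ± 0.20, adjusted p = 0.0163), by at least 1.15-fold. That call was lost with 16 added to intensities in place of 1 (-0.25, adjusted p = 0.354). It was also lost with array brightness as a covariate (-1.01, adjusted p = 0.0671). Gata6+Itga6- cells were at least 5.15-fold below CD34+ cells (adjusted p = 3.49e-06) and at least 3.17-fold below remaining basal cells (adjusted p = 4.12e-05). CD34+ and remaining basal cells, neighbours at the top of the order, missed the threshold between them (0.70 ± 0.20, adjusted p = 0.081).

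All 27 Itga2 probe sets were lower in Gata6+Itga6- than in the CD34+ population, and 26 of them did not overlap, where 10.4% of all probe sets lay lower in this way. In Gata6+Itga6+ against CD34+ cells again all 27 were lower, 17 of them with no overlap, where 7.58% of all probe sets did so. All 27 were also lower in Gata6+Itga6- than in the Gata6+Itga6+ population. Of these 15 did not overlap, where 9.65% of all probe sets lay lower in this way. The promoters of Itga2 and Itgb1, whose products form this receptor, are shown because Itga2 was called among the basal populations and Itgb1 was not. The RefSeq windows, in the build GRCm38.p6, cover the 250 bases before the annotated start on the strand of the gene, chr13:114932101-114932350 on the minus strand for Itga2 and chr8:128685404-128685653 on the plus strand for Itgb1. Capitals mark motif matches.
Itga2: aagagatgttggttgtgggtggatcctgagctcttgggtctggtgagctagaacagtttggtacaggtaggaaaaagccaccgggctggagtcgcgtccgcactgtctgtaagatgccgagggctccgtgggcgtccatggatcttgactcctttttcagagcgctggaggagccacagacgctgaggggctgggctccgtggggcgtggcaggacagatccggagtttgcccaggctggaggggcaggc
Itgb1: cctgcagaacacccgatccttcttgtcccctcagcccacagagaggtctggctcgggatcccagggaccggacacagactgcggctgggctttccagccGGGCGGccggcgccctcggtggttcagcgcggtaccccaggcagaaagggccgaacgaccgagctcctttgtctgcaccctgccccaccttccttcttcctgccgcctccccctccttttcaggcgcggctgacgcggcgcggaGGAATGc
Each window was searched on both strands for AP-1 (TGANTCA), the GC box (GGGCGG), TEAD (GGAATG), the CCAAT box (CCAAT), the TATA box (TATAAA) and for GATA, spelled AGATAA in its first form, AGATAG in the second, TGATAA in the third and TGATAG in the last. The Itga2 window held none of these, and that of Itgb1 held a GC box beginning 151 bases before the start and a TEAD match beginning 7 bases before it, which do not overlap. Of 32851 such windows in the RefSeq table, 32.7% held the GC box and 12.6% the TEAD letters. The share of G and C was 60.8% for Itga2 and 68% for Itgb1, against a median of 52.4% over all windows. A match describes letters and not a binding site.

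Itga3, the laminin-binding partner of Itgb1, stood at 1.91, 1.95 and 1.90 in Gata6+Itga6- cells, under the level of silent genes on every array. It stood at 2.98, 3.43 and 3.42 in Gata6+Itga6+ cells, at 4.24, 3.27 and 4.63 in CD34+ cells and at 3.48, 3.88 and 4.59 in remaining basal cells. The Itga6+ populations overlapped in part and the Gata6+Itga6- arrays lay apart from them. Itga3 was at least 3.00-fold lower in Gata6+Itga6- than in the CD34+ population (log2 change -2.13 ± 0.35, adjusted p = 0.00318) and at least 2.87-fold lower than in the remaining basal population (-2.06 ± 0.35, adjusted p = 0.00575). Against Gata6+Itga6+ cells the log2 change of -1.36 ± 0.35 missed the threshold (adjusted p = 0.0743). That comparison passed in 8 alternative analyses, with adjusted p-values of 0.00355 to 0.0448. The brightest Itga3 probe set averaged 1.72 ± 0.34 in Gata6+Itga6- cells, against 5.97 ± 1.55 in Gata6+Itga6+, 7.39 ± 0.38 in CD34+ and 7.52 ± 0.40 in remaining basal cells (SD, n = 3 each).

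Transcripts of the main epidermal laminin, the ligand of the Itga3 and Itga6 receptors, were lower as well in Gata6+Itga6- cells. Lama3, its alpha chain, was 2.70, 2.62 and 2.59 in Gata6+Itga6- cells, against 4.07, 4.09 and 3.94 in Gata6+Itga6+ cells, 2.64-fold lower (log2 change -1.40 ± 0.10, adjusted p = 7.19e-05). Lamb3, its beta chain, was 2.31, 2.40 and 2.28 in Gata6+Itga6- cells, against 5.04, 4.32 and 4.95 in Gata6+Itga6+ cells, at least 4.95-fold lower (adjusted p = 0.000241). No array overlapped for either gene.

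Itgav, the alpha chain that binds the RGD motif of fibronectin, vitronectin and latent TGF-beta, was measured over the level of silent genes on every array and was not called in any comparison. It stood at 4.68, 5.11 and 5.28 in Gata6+Itga6- cells, 5.88, 5.50 and 5.94 in Gata6+Itga6+ cells, 5.78, 5.97 and 5.52 in CD34+ cells and 4.86, 4.77 and 5.64 in remaining basal cells. Gata6+Itga6- arrays lay below the Gata6+Itga6+ and CD34+ arrays with no overlap, at log2 changes of -0.75 ± 0.25 (adjusted p = 0.188) and -0.73 ± 0.25 (adjusted p = 0.124). Remaining basal replicate 3 stood above its fellow replicates for Itgav, as it did for Itgb1, Itgb4, Itga6, Itga3 and Itga2. Without it, CD34+ cells were higher than remaining basal cells in 4 chains and not 2, Itgav (log2 change 0.95, adjusted p = 0.0347) and Itga2 (0.85, adjusted p = 0.0479) having joined. All genes called in that comparison numbered 906 without this array and 892 with it.

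Itgb8, a beta chain that pairs only with Itgav, was low in remaining basal cells. It stood at 4.18, 4.89 and 4.51 in Gata6+Itga6- cells, 5.53, 5.20 and 4.92 in the Gata6+Itga6+ and 4.97, 4.75 and 4.77 in the CD34+ population, against 2.25, 2.80 and 1.95 in remaining basal cells. The last 3 arrays lay below all 9 others, with a mean of 2.33 ± 0.43. This median lay under the level of silent genes, but 6 of the 16 Itgb8 probe sets lay over the corresponding level for single probe sets, 2.94, in remaining basal cells, so no bound is given. Itgb8 was higher in the Gata6+Itga6+ than in the remaining basal population (log2 change 2.89 ± 0.25, adjusted p = 0.000255). It was also higher in CD34+ cells (2.50 ± 0.25, adjusted p = 0.000166) and in the Gata6+Itga6- population (2.20 ± 0.25, adjusted p = 0.00046) than in the remaining basal population, whose arrays serve in all 3 comparisons. With the mean of probe sets in place of the median these log2 changes were 1.99, 1.69 and 1.42. With the brightest probe set alone they were 3.13, 2.32 and 2.64, and none was called (adjusted p = 0.222, 0.257 and 0.169). That probe set ranged from 2.08 to 5.53 over the arrays of remaining basal cells. All 16 Itgb8 probe sets were higher in each of these comparisons, and 14 of them did not overlap in Gata6+Itga6+ against remaining basal cells, where 8.65% of all probe sets lay higher in this way. Among the 3 higher populations no change was called, with log2 changes of -0.69 to 0.39.

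Itgb6, the other epithelial partner of Itgav, was higher in CD34+ cells than in each other population. Of its 20 probe sets, 14 lay over the level for single probe sets in CD34+ cells. In Gata6+Itga6- cells 3 did so, in Gata6+Itga6+ cells 1, and among remaining basal cells 5. It stood at 3.47, 3.46 and 4.97 in CD34+ cells, against 1.52, 2.01 and 2.01 in remaining basal cells. It stood at 1.62, 1.56 and 1.46 in Gata6+Itga6- cells and at 1.60, 1.52 and 1.54 in Gata6+Itga6+ cells, and CD34+ arrays overlapped with none of these. Itgb6 was higher in CD34+ than in the remaining basal population (log2 change 2.12 ± 0.34, adjusted p = 0.00439). Gata6+Itga6- cells (-2.42 ± 0.34, adjusted p = 0.00122) and Gata6+Itga6+ cells (-2.41 ± 0.34, adjusted p = 0.00234) lay below CD34+ cells too. Without CD34+ replicate 3, the highest array, the log2 change in CD34+ against remaining basal cells was 1.62 (adjusted p = 0.000295). Of the 20 Itgb6 probe sets, 18 were lower in Gata6+Itga6+ than in the CD34+ population and 16 of them did not overlap. Over all probe sets 7.58% lay lower in this way. The brightest Itgb6 probe set averaged 7.37 in Gata6+Itga6-, 7.52 in Gata6+Itga6+, 7.46 in CD34+ and 7.61 in remaining basal cells.

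CD34+ cells also held fibroblast marker signal, with Col1a1 and Col1a2 over the level of silent genes there and none of the 6 markers over it in the other populations. The summed intensity of the 6 was 20.5 to 21.1 in CD34+ cells, against 15.7 to 16.3 in Gata6+Itga6-, 15.2 to 16.2 in Gata6+Itga6+ and 15.0 to 16.2 in remaining basal cells, while Col3a1, Dcn, Lum and Pdgfra lay under the level throughout. Of 5 melanocyte markers, Mlana and Sox10 lay over it in CD34+ and Gata6+Itga6+ cells, with sums of 18.4 to 20.3 in CD34+ and 16.3 to 16.9 in Gata6+Itga6+ cells, against 14.5 to 16.9 in Gata6+Itga6- and 15.9 to 16.8 in remaining basal cells. The suprabasal keratinocyte markers Krt1, Krt10, Ivl and Lor had sums of 94.3 to 189.3 in CD34+ cells, against 853.2 to 917.8 in Gata6+Itga6-, 700.4 to 992.0 in Gata6+Itga6+ and 709.2 to 918.4 in remaining basal cells, with Ivl under the level in the CD34+ and the remaining basal population. In Gata6+Itga6- against Gata6+Itga6+ cells limma called 2 of these 4 higher and Krt1 lower (log2 change of Krt1 -2.23, adjusted p = 0.00725). Against remaining basal cells it called 1 higher and Krt1 lower (-2.38, adjusted p = 0.00216). The part of these markers in the results for Itgb6 and Itga5 was not tested.

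The promoters of Itgb6 and Itgb8 are shown because these partners of the same alpha chain parted among the basal populations. The windows are chr2:60722604-60722853 on the minus strand for Itgb6 and chr12:119238277-119238526 on the minus strand for Itgb8, of the same build and length as above, with capitals for the same motifs.
Itgb6: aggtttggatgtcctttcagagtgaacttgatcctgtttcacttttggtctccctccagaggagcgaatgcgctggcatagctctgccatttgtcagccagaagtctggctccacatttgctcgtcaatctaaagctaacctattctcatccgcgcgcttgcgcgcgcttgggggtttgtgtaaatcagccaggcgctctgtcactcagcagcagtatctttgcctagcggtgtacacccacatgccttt
Itgb8: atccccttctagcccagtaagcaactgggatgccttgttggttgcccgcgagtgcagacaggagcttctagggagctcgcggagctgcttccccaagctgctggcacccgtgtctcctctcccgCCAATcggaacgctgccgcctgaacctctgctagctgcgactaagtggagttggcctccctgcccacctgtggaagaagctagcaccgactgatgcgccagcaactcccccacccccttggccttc
The Itgb6 window held none of the 6 motifs, and the Itgb8 window held a CCAAT box beginning 126 bases before the start, letters found in 33.8% of all windows. The share of G and C was 52% and 62.4%. For 8 of the 10 chains 1 window was searched, and none of these held AP-1, TATA or GATA letters. Over all windows 6.75%, 12.4% and 26.5% held them. Itga3 and Itgb6 had 2 windows each in the RefSeq table, and only the window farthest upstream was searched. Itga6 and Itgb4 had no entry.

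Itga5, the alpha chain of the fibronectin receptor, had a median level whose mean was over that of silent genes in CD34+ cells alone. It stood at 2.34, 2.47 and 3.43 there, against 2.09, 1.90 and 1.96 in remaining basal cells, with no overlap (log2 change 0.76 ± 0.24, adjusted p = 0.127). In Gata6+Itga6- cells it was 1.75, 2.00 and 1.91 and in Gata6+Itga6+ cells 1.80, 1.84 and 2.16. Of its 27 probe sets, 13 lay over the level for single probe sets in CD34+ cells and 4 in remaining basal cells, and 21 were higher in the CD34+ population. Itga9, an alpha chain that binds tenascin C and other ligands, lay under the level of silent genes on all 12 arrays, between 1.55 and 1.93. Only 6 of its 30 probe sets exceeded the level for single probe sets in any population, and the brightest stood at 5.28 to 5.55 in all 4.

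**Figure D3:**
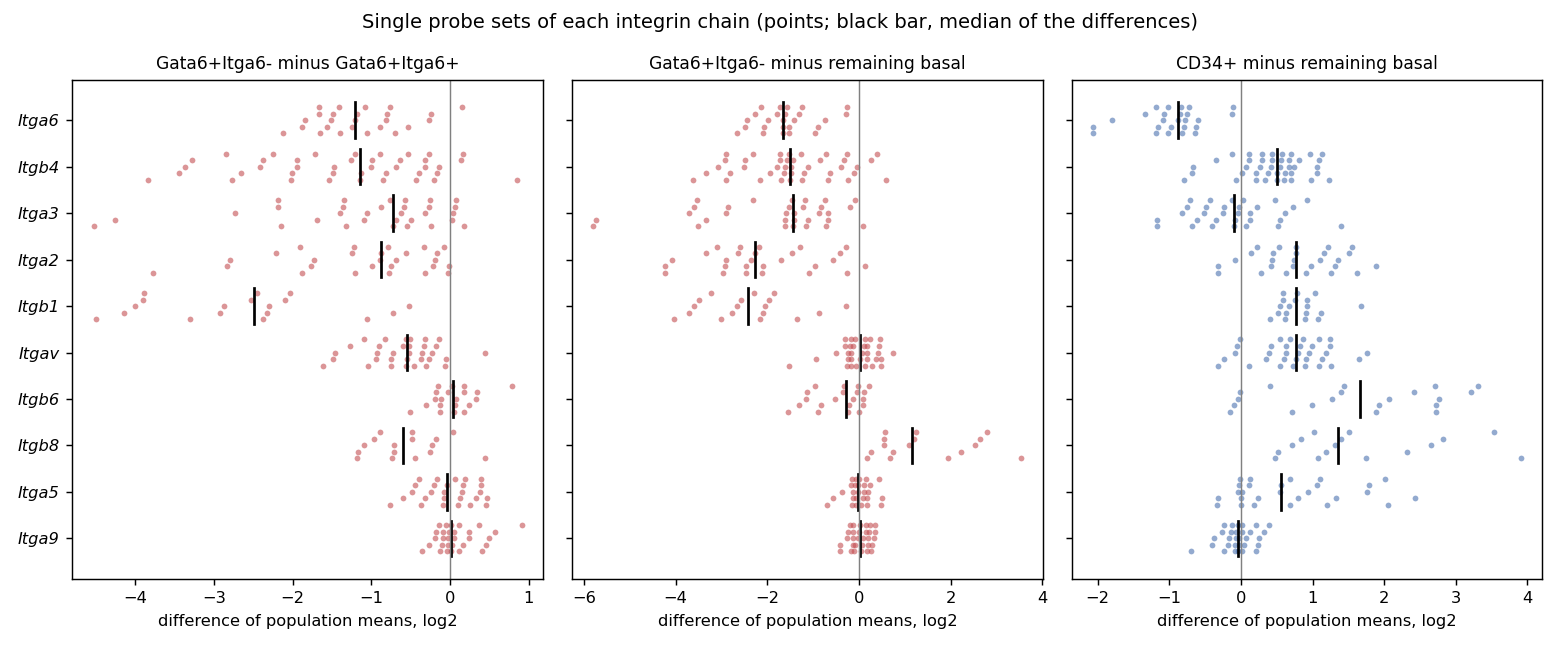
Difference of population means for each single probe set (points; horizontal axes, log2) of the 10 integrin chains in 3 comparisons, with a black bar at the median of each gene. All 18 Itgb1 probe sets lie left of 0 in Gata6+Itga6- against Gata6+Itga6+ cells, and all 25 Itga6 probe sets lie left of 0 in CD34+ against remaining basal cells.

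Of 15 other integrin chains measured, including those of blood cells, platelets and muscle, 13 had means under the level of silent genes in every population. Itgb5, a further partner of Itgav, averaged 3.42 ± 0.14 in Gata6+Itga6-, 2.52 ± 0.43 in Gata6+Itga6+, 3.13 ± 0.71 in CD34+ and 2.34 ± 0.53 in remaining basal cells and was not called in any comparison. Itgb7, a leukocyte chain, averaged 2.23 to 2.65. Itga1 and Itga11 were called in Gata6+Itga6- against CD34+ cells (adjusted p = 0.0332 and 0.0326), and Itga11 also against remaining basal cells, but their means lay under the level of silent genes throughout and no fold is given.

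The integrin ligand genes called in Gata6+Itga6- cells were all lower there, in each of the 3 comparisons. Of 28 measured, Gata6+Itga6- cells had 7 lower and 0 higher than Gata6+Itga6+ cells (2.01% of all genes were lower), 12 lower than CD34+ cells (4.74%) and 8 lower than remaining basal cells (2.15%). Gata6+Itga6+ cells had 7 lower and 1 higher than CD34+ cells (2.18% and 2.4% of all genes) and 1 lower and 2 higher than remaining basal cells (0.286% and 1.07%), and CD34+ cells had 6 higher and 1 lower than remaining basal cells (3.32% and 1.67%). Postn, periostin, a ligand of Itgav receptors, stood at 2.58, 2.65 and 1.92 in Gata6+Itga6- cells, 6.53, 7.14 and 7.29 in Gata6+Itga6+ cells, 9.53, 9.51 and 9.43 in CD34+ cells and 5.87, 6.27 and 7.11 in remaining basal cells. Postn was at least 23.1-fold lower in Gata6+Itga6- than in the Gata6+Itga6+ population (adjusted p = 5.68e-05) and 8.40-fold higher in CD34+ than in the remaining basal population (adjusted p = 0.000236). Tnc, tenascin C, was 4.22, 3.57 and 4.81 in CD34+ cells and under the level of silent genes in all other populations, at least 3.33-fold higher than in the remaining basal population (adjusted p = 0.000319).

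Npnt, nephronectin, which the bulge deposits as a ligand of integrin alpha 8, averaged 2.70 ± 0.10 in Gata6+Itga6+ cells and 4.93 ± 0.43 in CD34+ cells, 4.72-fold lower (adjusted p = 0.00107). Itga8 itself was among the chains under the level of silent genes. Ccn2, a matricellular protein that binds several integrins, averaged 4.79 ± 0.42 in Gata6+Itga6+ cells, against 7.24 ± 0.15 in CD34+ cells and 3.02 ± 0.07 in remaining basal cells (5.46-fold lower and 3.41-fold higher, adjusted p = 0.000132 and 0.00374). Its relative Ccn1 ran otherwise, at 4.64 in the Gata6+Itga6+ and 6.16 in the remaining basal population (2.87-fold lower, adjusted p = 0.0295). Tgfb2, whose latent relatives Itgb6 and Itgb8 receptors activate, averaged 3.49 ± 0.46 in the Gata6+Itga6+ and 2.12 ± 0.15 in the remaining basal population, at least 2.05-fold higher (adjusted p = 0.0281).

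**Figure D4:**
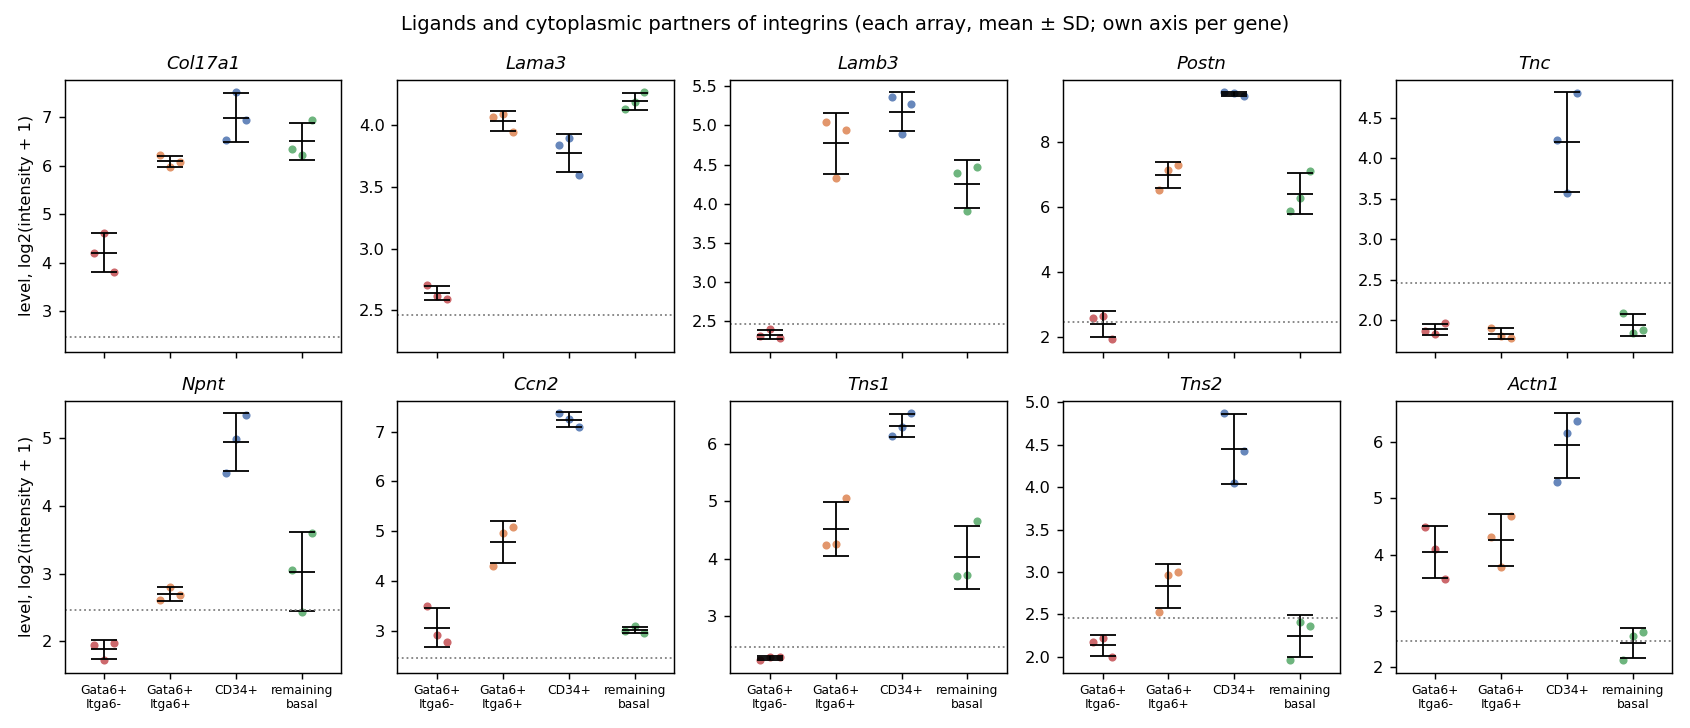
Level of 10 ligands and partners of integrins on each array (points; vertical axes, log2 of intensity plus 1, a separate axis for each gene), with mean and SD of 3 arrays and a dotted line at 2.46. Col17a1, Lama3, Lamb3, Postn and Tns1 are lowest in Gata6+Itga6- cells, and Postn, Tnc, Npnt, Ccn2, Tns1, Tns2 and Actn1 are highest in CD34+ cells.

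Genes whose products bind integrin tails or build focal adhesions were counted in the same way. Of 25 measured, 3 were lower and 0 higher in Gata6+Itga6- than in the Gata6+Itga6+ population (2.01% and 1.17% of all genes). All 3 were tensins, a family of adaptors that bind the tails of beta chains. Tns4 averaged 4.89 ± 0.77 in the Gata6+Itga6- and 6.93 ± 0.31 in the Gata6+Itga6+ population (4.12-fold lower, adjusted p = 0.0169). Tns1 was 2.24, 2.29 and 2.30 in Gata6+Itga6- cells, against 4.23, 4.25 and 5.07 in Gata6+Itga6+ cells (at least 4.16-fold lower, adjusted p = 0.00251), and Tns3 was at least 2.08-fold lower (adjusted p = 0.0364). In Gata6+Itga6+ against CD34+ cells 6 were lower and 0 higher (2.18% and 2.4%), led by Tns2, Tns1 and Zyx, and in CD34+ against remaining basal cells 5 were higher and 0 lower (3.32% and 1.67%). Actn1, alpha-actinin of focal adhesions, was 5.29, 6.17 and 6.37 in CD34+ cells, against 2.13, 2.55 and 2.62 in remaining basal cells (at least 11.2-fold higher, adjusted p = 0.000142). Gata6+Itga6+ cells also exceeded remaining basal cells in Actn1, at least 3.48-fold (4.26 ± 0.46 against 2.43 ± 0.27, adjusted p = 0.0295), and only 1 other gene of the list was called there (1.07% of all genes were higher and 0.286% lower), Bcar1, which was 1.53-fold lower (adjusted p = 0.0441). In Gata6+Itga6- cells 9 of the 25 were lower than in the CD34+ population (4.74%), and 3 were lower and 1 higher than in the remaining basal population (2.15% and 2.96%). The median log2 changes of the ligand and the focal adhesion lists lay between -0.47 and 0.21 over the 6 comparisons, against -0.03 to 0.04 over all genes.

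For the 7 chains whose population means spanned at least 1 on the log2 scale, the genes most like them over the 12 arrays were found as the root mean square difference of levels, each gene centred on its own mean. For Itgb1 these were the chemokine scavenger Ackr4 (0.32), Tgfbi (0.33), a secreted matrix protein that binds integrins, and Atic (0.37). For Itgb4 they were Selenow (0.31), Ece1 (0.32) and Col17a1 (0.32). Itga6 lay closest to Thbs2 (0.22), and Itga3 to Ccnd1 (0.33). Itga2 lay closest to the transcription factor Maf (0.43) and to Thbs1 (0.47), an integrin ligand of the list above. Itgb6 lay closest to Igfbp5 (0.20), Nrcam (0.23) and Duox1 (0.25), each with a median under the level of silent genes outside CD34+ cells. Itgb8 lay closest to C1qtnf12 (0.38), Itpripl1 (0.42) and the ephrin Efnb2 (0.48), whose means were likewise lowest in remaining basal cells. These likenesses describe the 12 arrays and share their populations, so no p is given.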

How the data were processed

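RNA of 12 sorted epidermal samples was amplified, labelled with biotin and hybridised to exon arrays, per the labels' protocols. The deposited values are probe set intensities, which the authors made by RMA with Affymetrix Power Tools (mm9; submitters' processing notes, which give no versions). They were read as linear, since array maxima lay between 2172 and 2953, whereas log2 output is usual for RMA; every level and fold rests on this. RMA scales arrays to each other, so a shift shared by most genes is reduced.

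Of 235932 probe sets, the 221205 with 1 gene symbol were used. The median of log2(value + 1) over its probe sets gave the level of a gene, which makes changes of dim genes smaller. All 17853 genes were fitted with limma 3.58.1 (R 4.3.3) on the 12 arrays, 1 mean to each population; residual degrees of freedom were 8. The procedure was tested on simulated data. An exact permutation test of 3 against 3 arrays cannot reach the threshold and was not used. Replicate numbers were not used as pairs in the main fit, and the labels do not say what arrays of the same number share. Deviations correlated at -0.10 to 0.19 for arrays of the same number, and not above 0.1 for every pair. For arrays of different populations that shared neither number nor array letter the range was -0.17 to 0.20. The ranges overlap, so this check cannot decide whether the numbers pair the arrays.

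All 10 chains are named, with sort and keratin genes as checks, the called genes of smallest adjusted p (at most 3) of each list in each comparison, and the 3 genes most like a chain whose means span at least 1. Itgb5, Itgb7 and Itga8 were chosen after their values were seen. Members and lists were chosen with earlier results of these data known. Some genes of the lists were not analysed here. Alternatives were another added constant (16), quantile normalization, the mean or the brightest probe set, leaving out the dimmest genes, fitting only the populations compared, array brightness as a covariate, a block for the replicate number or the array letter in the labels, and leaving out each array.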

Additional observations from a re-analysis of the deposited data

How the results depend on the processing

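The counts of called chains, here over all 10 with Itga6 among them, were recomputed under 21 alternatives. In the main fit 567 of all 17853 genes were called in Gata6+Itga6- against Gata6+Itga6+ cells and 819 in Gata6+Itga6+ against CD34+ cells. Against remaining basal cells 242 were called for Gata6+Itga6+ and 892 for CD34+ cells. With 16 added in place of 1, 2 chains were called in Gata6+Itga6- against Gata6+Itga6+ cells and 1 in CD34+ against remaining basal cells. All genes called there numbered 396 and 720. With the mean of probe sets 6 were called in CD34+ against remaining basal cells (1513 of all genes). With the brightest probe set alone, limma called 1 in Gata6+Itga6+ against CD34+ cells (503 of all genes). Against remaining basal cells it called 0 in Gata6+Itga6+ and 0 in CD34+ cells (191 and 685 of all genes). There 3 and 1 chains had an unadjusted p under 0.05. Fitting only the populations compared gave 1 each in Gata6+Itga6+ and in CD34+ against remaining basal cells (110 and 571 of all genes). Array brightness as a covariate gave 4 in Gata6+Itga6+ against CD34+ cells (979 of all genes). Leaving out single arrays gave 1 to 5 in Gata6+Itga6- against Gata6+Itga6+ cells (285 to 626 of all genes). It gave 2 to 4 in CD34+ against remaining basal cells (673 to 906 of all genes). In Gata6+Itga6- against CD34+ cells it gave 5 to 6 (1056 to 1500 of all genes). Of 21 called changes over 21 alternatives, 413 of 441 kept direction and call, 26 kept direction only and 2 reversed, and 9 were kept throughout, all of Itga2, Itga3, Itgb1 or Itgb4. Of 16 changes of at least 0.6 that were not called, 306 of 336 kept direction and stayed uncalled. In 28 the change passed with the same direction, in 2 it reversed, and 6 changes were kept throughout. All reversals came with the brightest probe set: Itgb6 in Gata6+Itga6+ against CD34+ cells (log2 change 0.0623, adjusted p = 0.972) and in CD34+ against remaining basal cells (-0.15, adjusted p = 0.905), and, among changes not called, Itga5 in CD34+ against remaining basal cells (-0.042, adjusted p = 0.976) and in Gata6+Itga6- against CD34+ cells (0.0179, adjusted p = 0.992). The fall of Itga6 in Gata6+Itga6- against Gata6+Itga6+ cells lost its call without any 1 of 5 arrays (adjusted p = 0.0549 to 0.102). A block for the replicate number was also fitted, although the labels do not say what arrays of the same number share. With it 4 chains were called in Gata6+Itga6- against Gata6+Itga6+ cells (516 of all genes). In Gata6+Itga6+ cells 2 each were called against CD34+ and remaining basal cells (801 and 204 of all genes). In CD34+ against remaining basal cells 3 were called (886). In Gata6+Itga6- cells 5 were called against CD34+ and 6 against remaining basal cells (1388 and 886). The causes of these shifts were not tested. Signal over background limits Itga9 and the low side of Itga2, Itga3, Itgb6 and Itgb8, whose medians lay under the level of silent genes.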
